A study of Mus musculus with 16 samples.

Results

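Interferon-stimulated genes are the genes that cells switch on after interferon binds its receptors, and most of them encode proteins that hinder viruses. The 37 genes described here were chosen by symbol from those known to respond to interferon, and all 37 were found among the 24981 genes of the deposited expression table. Of these, 36 reached 1 RPKM in at least 4 of 16 libraries and entered the tests, as 11234 genes of the table did. Ifi44 did not reach that level. RPKM is the number of reads per kilobase of transcript, scaled to the reads of the library.

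Type I interferons act through the receptor chains Ifnar1 and Ifnar2, whose kinases activate the complex ISGF3, of which Stat2 and Irf9 are parts. ISGF3 binds the interferon-stimulated response element (ISRE) in the promoters of its targets. Interferon gamma acts through Ifngr1 and Ifngr2, and induces guanylate-binding proteins and immunity-related GTPases more than other genes. Tissue macrophages hold a low level of these transcripts without infection, through interferon made in small amounts.

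The study compared resident macrophages of 3 serous cavities and of the heart in unchallenged C57BL/6 mice aged 8 weeks. Pericardial macrophages (around the heart), pleural macrophages (around the lungs) and peritoneal macrophages (in the abdomen) came from lavage fluid, while the heart group came from heart tissue. Cells were sorted by flow cytometry into TRIzol, and each population had 4 libraries, numbered 2 to 5 in their titles. No group carried an engineered allele or received an agent, as far as the labels say. Whether each library is a separate animal is not in the labels, and p-values here therefore cover the spread among these libraries only, which may be technical. No source used here gives the markers or gates of the sort.

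Alignments ranged from 40886702 to 70166356 per library. The summed RPKM ranged from 227397 to 336952 in heart libraries and from 272981 to 482872 in cavity libraries, a difference that cannot be told apart from the groups themselves. General macrophage markers, 6 genes with none at 0, summed to between 4525 and 8075 RPKM in heart and between 19440 and 41710 RPKM in cavity libraries. Most of the sum was Lyz2, on average 5219 of 6198 RPKM in heart and 35300 of 36300 RPKM in pericardial libraries. Csf1r and Fcgr1 went the other way, averaging 509 and 39.2 RPKM in heart and at most 258 and 13.5 RPKM in any cavity group. Adgre1 averaged 205 RPKM in heart and at least 443 RPKM in the cavity groups, while the ranges of Cd68 and Mertk overlapped. Levels are averages over sorted cells, so fewer cells of a type and less RNA per cell cannot be told apart.

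In each group, the library numbered 3 stood apart for these genes. It had the highest RPKM of its group for 32 of 36 genes among pericardial macrophages, for 36 among pleural, for 34 among peritoneal and for 19 among heart macrophages. Over all tested genes the corresponding shares were 24.3%, 20.5%, 49.6% and 12%. It was highest in 3 or 4 of the groups for 34 of the 36, the exceptions being Ifit1 and Xaf1, against 6.6% of all tested genes. For the numbers 2, 4 and 5 that count was 0 of 36.

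The median of the 36 genes in library 3 lay above the mean of the other 3 libraries of its group by 0.516 on the log2(RPKM + 0.5) scale for pericardial macrophages, by 0.683 for pleural, by 0.87 for peritoneal and by 0.383 for heart macrophages. The medians of all tested genes in the same libraries were 0.055, -0.02, 0.273 and -0.107. After median-ratio scaling, which aligns the typical gene between libraries, the 36 genes still stood at 0.455, 0.697, 0.605 and 0.488. Libraries numbered 3 had the most alignments in the 3 cavity groups but not in heart, where library 3 had 58148496 and library 4 had 70166356. Monocyte markers, 5 genes, were summed at 103 RPKM in pericardial, 118 in pleural and 73.3 in peritoneal library 3, the highest of each cavity group. In heart library 3 they summed to 32.9 RPKM, within the group's range of 30.2 to 42.7. The part of depth or monocyte content in the pattern was not tested. Results below are given with all libraries and, where the call differs, without the 4 libraries numbered 3.

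**Figure D1:**
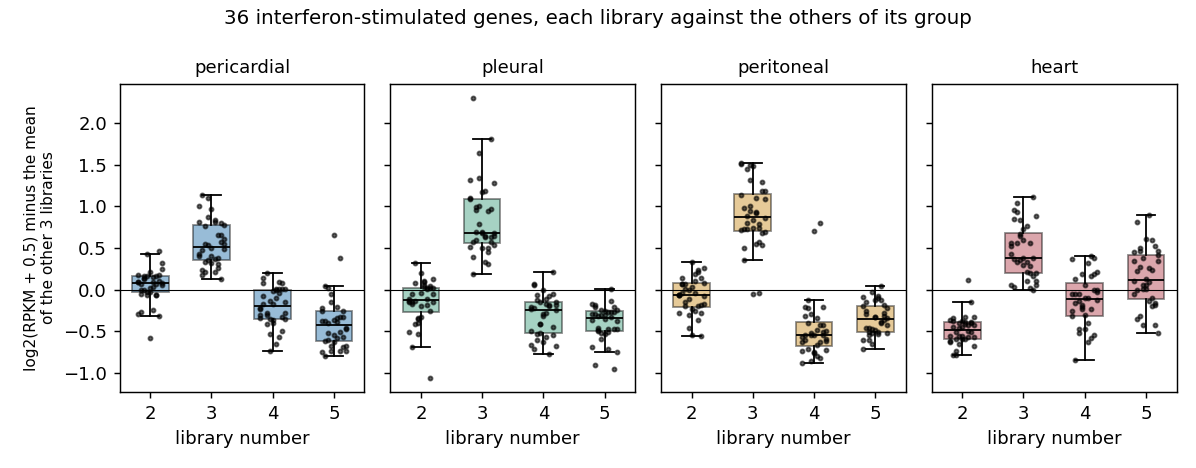
Each point is 1 of 36 interferon-stimulated genes, and the y axis gives its log2(RPKM + 0.5) in a library minus the mean of the other 3 libraries of that group; boxes span the quartiles with the median as a line. Library 3 has the highest median in every group, between 0.383 in heart and 0.87 in peritoneal macrophages.

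The promoters of these genes are shown first, because the ISRE is what defines many of them. RefSeq promoter windows (GRCm38.p6, 250 bases before to 50 after the annotated start) were at hand for 27 of the 37 genes. The ISRE core, searched as GAAA, any 2 bases and GAAA on both strands (TTTC, any 2 bases and TTTC when read on the other), was present in 17 of these 27 genes and in 3.99% of 27025 genes with such a window. The interferon gamma-activated site, GAS, searched as TTCNNNGAA, was present in 6 of the 27 genes and in 9.55% of all genes. Overlapping matches of the core, as in Isg15, were counted as 1 gene. A match is a description of the letters and not evidence of binding.

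The following stretches, each written 5′ to 3′ on the strand of its gene with the ISRE core in capitals, are shown because they come from genes that stood on opposite sides in heart macrophages. Ifit3, Ifit1, Isg15 and Rsad2 were higher there than in pericardial macrophages, Gbp2 and Gbp3 were lower, and Oas1a and Oas1g were not called.

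Ifit3, chr19:34583363-34583392: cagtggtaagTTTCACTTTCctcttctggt

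Ifit3, chr19:34583397-34583426: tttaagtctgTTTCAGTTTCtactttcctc

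Ifit1, chr19:34640775-34640823: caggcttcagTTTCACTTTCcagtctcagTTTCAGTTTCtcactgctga

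Isg15, chr4:156200865-156200906: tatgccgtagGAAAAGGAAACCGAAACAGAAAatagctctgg

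Rsad2, chr12:26456553-26456582: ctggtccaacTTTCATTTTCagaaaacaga

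Gbp2, chr3:142620594-142620623: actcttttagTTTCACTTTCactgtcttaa

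Gbp3, chr3:142559989-142560024: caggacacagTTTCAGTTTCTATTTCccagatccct

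Oas1a, chr5:120907520-120907555: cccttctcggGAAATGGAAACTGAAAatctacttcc

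Oas1g, chr5:120887606-120887641: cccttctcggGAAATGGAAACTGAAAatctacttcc

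Ifit3, Ifit1 and Gbp2 held the same core, TTTCACTTTC, and Ifit3, Ifit1 and Gbp3 the core TTTCAGTTTC. The Oas1a and Oas1g stretches are letter for letter the same over 36 bases, and reads of these near-identical neighbours may have been split between them in an uncertain way. Counted from the annotated start as 0, the first and second cores of Ifit3 began at -156 and -122, and that of Gbp2 at -59. The whole 250 bases before both starts are given to show those surroundings, on the plus strand of GRCm38.p6.

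Ifit3, chr19:34583279-34583528: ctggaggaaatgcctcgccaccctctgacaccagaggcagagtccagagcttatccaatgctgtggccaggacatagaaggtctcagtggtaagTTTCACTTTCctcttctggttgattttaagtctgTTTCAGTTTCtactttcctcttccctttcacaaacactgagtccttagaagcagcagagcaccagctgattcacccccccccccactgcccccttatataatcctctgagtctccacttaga

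Gbp2, chr3:142620413-142620662: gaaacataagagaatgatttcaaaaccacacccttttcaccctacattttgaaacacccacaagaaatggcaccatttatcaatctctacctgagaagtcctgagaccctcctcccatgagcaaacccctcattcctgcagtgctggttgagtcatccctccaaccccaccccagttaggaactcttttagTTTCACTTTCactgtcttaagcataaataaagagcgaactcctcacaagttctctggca

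Among the genes called higher in heart than in pericardial macrophages, 6 of the 10 with a window held the core (Ifi205, Ifit1, Ifit3, Isg15, Rsad2 and Stat2). Among those called lower it was 3 of 5 (Gbp2, Gbp3 and Ifitm3), and among those not called 8 of 11. The core was thus found on both sides of the comparison.

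Heart macrophages were compared with each cavity population to ask which interferon-stimulated genes differ between cells of the tissue and cells of the fluid. In heart macrophages the Ifit genes, Rsad2, Mx1, Oasl1, Ifi205 and Siglec1 were higher than in every cavity population, with Ifit3 the furthest at 17.2 RPKM against 0.728 in pericardial macrophages. The guanylate-binding proteins Gbp2 and Gbp3, the membrane protein Ifitm3 and the exonuclease Isg20 were lower on the deposited scale, where 47.8% to 53.8% of all tested genes were. Of these 4, only Gbp3 was called lower in all 3 comparisons under all 3 other scalings. The RNA and DNA sensors were not called in any of the 3 comparisons on the deposited scale with all libraries.

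With limma and Benjamini-Hochberg adjustment over 11234 genes, 16 of 36 genes were called higher in heart than in pericardial macrophages at an adjusted p under 0.05, where 14.7% of all tested genes were. Called lower were 5 of 36, where 53.8% of all genes were. Against pleural macrophages 12 were higher and 6 lower (13.9% and 47.8% of all genes). Against peritoneal macrophages 17 were higher and 5 lower (14.1% and 48.8%). The median log2 fold of the 36 genes was 0.373, 0.198 and 0.448 in these 3 comparisons, and that of all tested genes -0.446, -0.364 and -0.382. The 3 comparisons share the heart libraries and are not independent of each other. Ifit2, Ifit3, Rsad2 and Oasl1 reached 1 RPKM in at least 4 libraries only with the heart libraries counted. For them the filter itself favoured calls higher in heart, and these calls were kept with no filter. Without the libraries numbered 3, 17 genes were higher and 5 lower against pericardial, 16 and 5 against pleural, and 19 and 4 against peritoneal macrophages. Over all genes these counts were 1403 and 4775, 1411 and 4194, and 1506 and 3654. Irf9 (0.51) was then also higher and Oas3 (-0.67) lower against pericardial macrophages. Ifi204 (0.64), Oasl2 (0.90), Stat2 (0.63) and Xaf1 (0.62) were also higher against pleural, and Oas1g (0.79) and Zbp1 (0.55) against peritoneal macrophages.

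The scaling of the libraries bears on these counts, since the deposited values placed the median gene lower in heart. Median-ratio scaling moved the median of all genes to 0.003 against pericardial macrophages, a shift of over 0.4, and called 27 of the 36 genes higher and 3 lower. Over all genes it called 3535 higher and 3550 lower, where the deposited scale gave 1650 and 6048. Scaling every library to the same RPKM total gave 27 and 2 (4070 and 2694 of all genes), and quantile normalization 26 and 4 (2865 and 4489). Under each scaling more of the 36 genes were called higher in heart, and fewer lower, than on the deposited scale. The same held over all tested genes. Gbp3 was the only gene called lower in heart in all 3 comparisons under all 3 scalings.

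**Figure D2:**
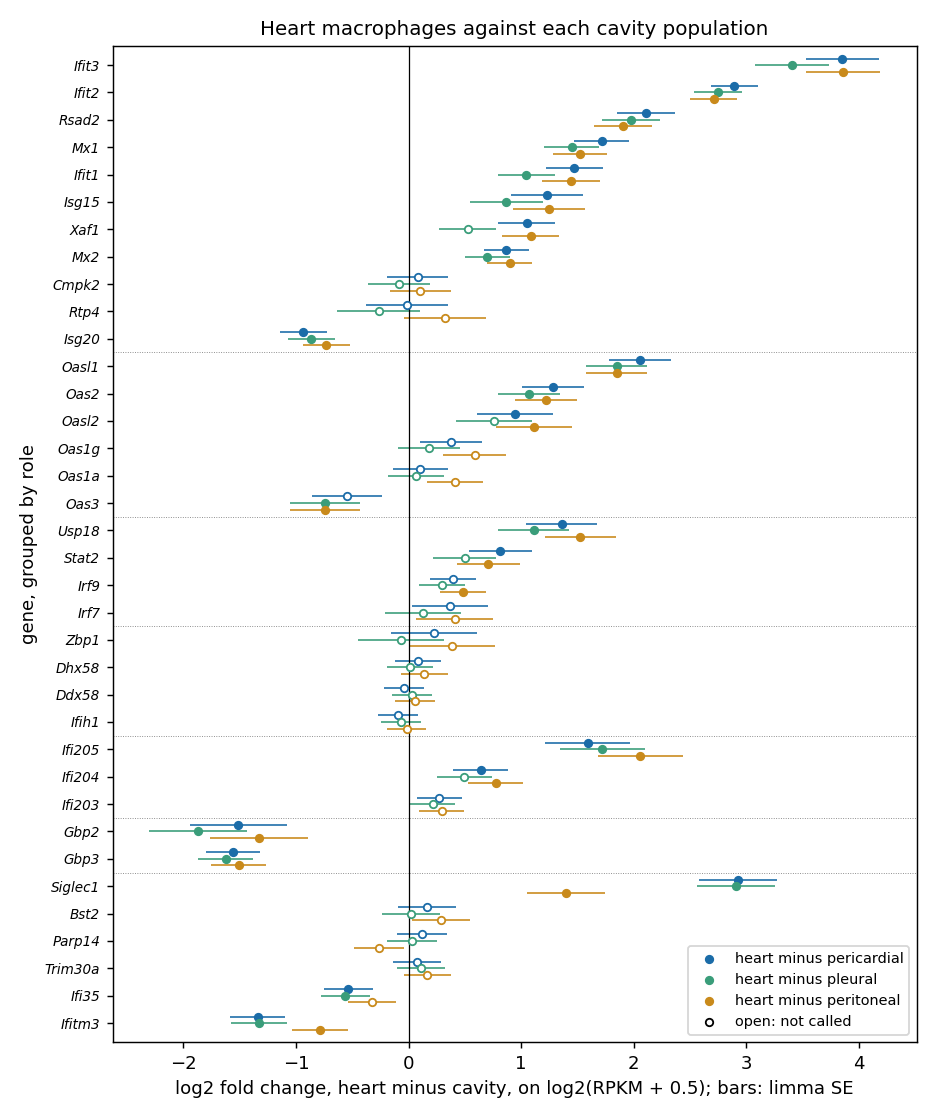
The x axis gives the log2 fold change on log2(RPKM + 0.5) of heart macrophages against pericardial, pleural and peritoneal macrophages for 36 genes grouped by role, with limma's standard error as bars; filled points were called at an adjusted p under 0.05. Ifit3, Siglec1 and Ifit2 lie furthest to the right against pericardial macrophages, at 3.86, 2.92 and 2.89, and Gbp3 and Gbp2 furthest to the left, at -1.56 and -1.51.

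The antiviral effectors, proteins that act directly on viral RNA, particles or nucleotide pools, held 8 of the 16 genes called higher against pericardial macrophages. Of 11 tested, 8 were higher and 1 lower in heart than in pericardial macrophages (14.7% and 53.8% of all tested genes). Under each of the 3 other scalings 8 were higher too. Ifit3, which binds other Ifit proteins on viral RNA, stood at 0.522, 1.31, 0.513 and 0.563 RPKM in pericardial libraries 2 to 5. It stood at 0.999, 2.38, 0.652 and 0.895 RPKM in pleural, and at 0.526, 2.09, 0.352 and 0.368 RPKM in peritoneal libraries. In heart libraries it reached 12.4, 22.1, 14.1 and 20.1 RPKM. Every heart library lay above all 12 cavity libraries, and the highest cavity value was in pleural library 3. Ifit3 rose by 3.86 ± 0.33 (SE) on the log2 scale against pericardial macrophages (limma adjusted p = 4.54e-09), by 3.41 ± 0.33 against pleural and by 3.86 ± 0.33 against peritoneal macrophages. A near-identical neighbour, Ifit3b, was also higher in heart, by 2.69 ± 0.17 against pericardial macrophages, and how reads were split between both is uncertain.

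Ifit2, a related RNA-binding protein, was at 0.181, 0.265, 0.139 and 0.214 RPKM in pericardial, and at 0.207, 0.538, 0.19 and 0.2 RPKM in pleural libraries. Peritoneal libraries had 0.352, 0.456, 0.212 and 0.18 RPKM and heart libraries 3.62, 8.04, 4.27 and 3.82 RPKM. All cavity libraries were below 1 RPKM and all heart libraries above 3, with no overlap. Ifit2 thus passed the filter on low values through its heart libraries alone, which favoured a call in this direction. The log2 rise was 2.89 ± 0.21 against pericardial (limma adjusted p = 4.03e-10), 2.75 ± 0.21 against pleural and 2.71 ± 0.21 against peritoneal macrophages. Ifit1, which binds RNA that lacks a host-type cap, was at 5.84 RPKM in heart and 1.79 RPKM in pericardial macrophages, a rise of 1.47 ± 0.25. Ifit1, Ifit2 and Ifit3 lie together on chromosome 19, from Ifit2 at chr19:34550550-34576534 to Ifit1 at chr19:34640889-34650009.

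Rsad2 encodes viperin, an enzyme that makes a chain-terminating nucleotide from CTP. It was at 0.747, 0.778, 0.425 and 0.658 RPKM in pericardial, and at 0.803, 1.55, 0.447 and 0.468 RPKM in pleural libraries. Peritoneal libraries had 0.819, 1.41, 0.73 and 0.458 RPKM and heart libraries 3.29, 6.1, 3.27 and 5.75 RPKM. The lowest heart library was above the highest cavity library. Rsad2 rose by 2.11 ± 0.26 against pericardial (limma adjusted p = 7.84e-07), 1.98 ± 0.26 against pleural and 1.91 ± 0.26 against peritoneal macrophages. Cmpk2, a nucleotide kinase gene that neighbours Rsad2 on chromosome 12 (chr12:26469117-26479837 beside chr12:26442743-26456452), was not called. It stood at 3.58 RPKM in heart and 3.27 RPKM in pericardial macrophages.

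Mx1, of the dynamin-like GTPase family, was at 7.26 RPKM in heart and 1.85 RPKM in pericardial macrophages, and rose by 1.72 ± 0.24. Its paralogue Mx2 rose by 0.87 ± 0.20, to 2.65 from 1.23 RPKM. Both genes have a non-coding transcript among those the authors list. Whether either yields a working protein in these C57BL/6 mice was not tested. The ubiquitin-like modifier Isg15 was at 14.3 against 5.8 RPKM, a rise of 1.23 ± 0.32, and Xaf1, linked to cell death, at 10.8 against 4.94 RPKM, a rise of 1.05 ± 0.25. Rtp4 was not called and stood at 26.8 RPKM in heart and 28 RPKM in pericardial macrophages.

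Isg20, an exonuclease for single-stranded RNA, was the 1 effector that fell. It had 6.63, 7.27, 6.65 and 5.16 RPKM in pericardial, and 5.87, 6.72, 6.3 and 5.38 RPKM in pleural libraries. Peritoneal libraries had 5.34, 7.28, 4.59 and 5.03 RPKM and heart libraries 2.52, 3.85, 1.82 and 4.99 RPKM. Heart library 5 overlapped the peritoneal range but lay below every pericardial and pleural library. The fall was 0.94 ± 0.21 on the log2 scale against pericardial macrophages (limma, change -0.94, adjusted p = 0.000668). At an equal RPKM total it was -0.37 and not called. Isg20 was then also not called against pleural or peritoneal macrophages, and under median-ratio scaling it was not called against peritoneal ones.

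**Figure D3:**
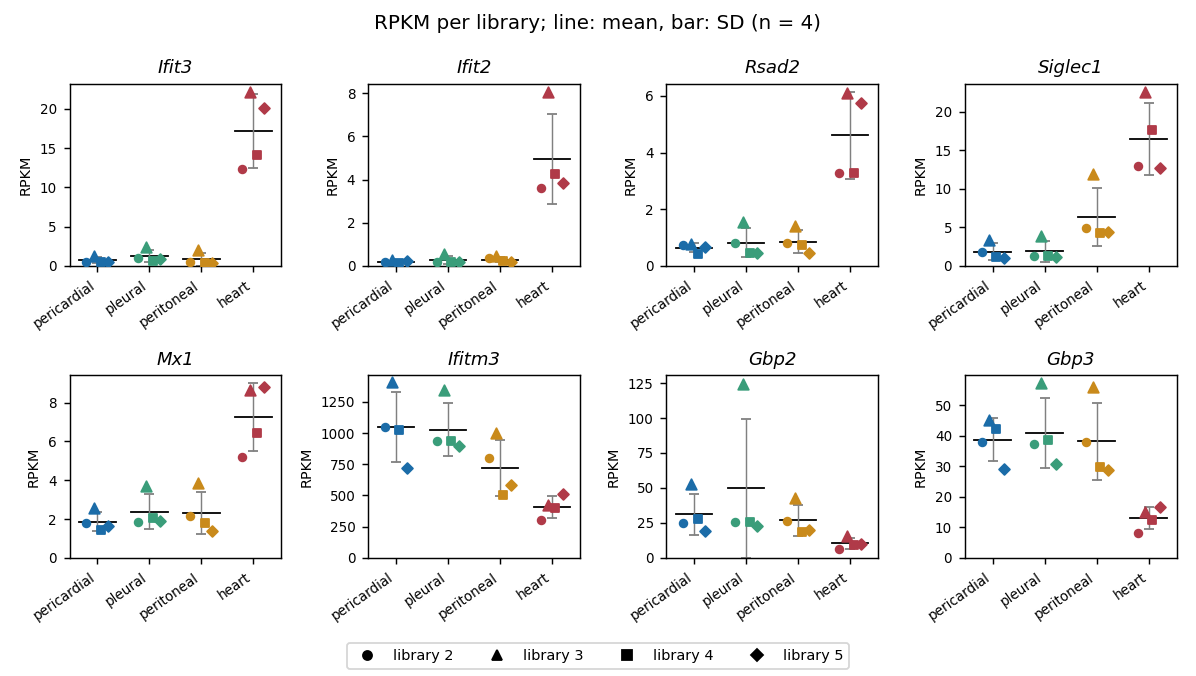
RPKM in each of 16 libraries for 8 genes, with libraries marked by number, the mean as a line and the SD over 4 libraries as a bar; each panel has its own y axis from 0. Heart libraries lie above all others for Ifit3, Ifit2, Rsad2, Siglec1 and Mx1 and below all others for Gbp2 and Gbp3, and the highest Gbp2 value, 124 RPKM, is that of pleural library 3.

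Active enzymes of the OAS family make the messenger 2-5A, which activates an RNA-degrading enzyme, while the OAS-like protein Oasl1 does not. Of 6 genes, 3 were higher in heart than in pericardial macrophages and none was lower (14.7% and 53.8% of all tested genes). Under the 3 other scalings 5 were higher, and higher calls over all tested genes rose as well. Oasl1 was at 0.341, 0.551, 0.183 and 0.141 RPKM in pericardial, and 0.575, 0.743, 0.165 and 0.272 RPKM in pleural libraries. Peritoneal libraries had 0.342, 0.941, 0.311 and 0.197 RPKM and heart libraries 1.91, 5.13, 2.55 and 2.28 RPKM. Cavity libraries were all under 1 RPKM and heart libraries all above it, so Oasl1 too passed the filter through heart libraries alone. Oasl1 rose by 2.05 ± 0.27 against pericardial macrophages (limma adjusted p = 2.63e-06), Oas2 by 1.28 ± 0.28 and Oasl2 by 0.95 ± 0.34.

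Oas3 had 4.55, 5.98, 3.05 and 3.38 RPKM in pericardial, and 4.87, 8.21, 3.45 and 3.62 RPKM in pleural libraries. Peritoneal libraries had 4.07, 9.25, 3.46 and 3.85 RPKM and heart libraries 2.41, 5.1, 1.88 and 2.02 RPKM. Library 3 was the highest in each group, and heart library 3 exceeded some cavity libraries. Oas3 was called lower in heart against pleural (-0.74 ± 0.31) and peritoneal macrophages (-0.74 ± 0.31) and not against pericardial ones, and it was called in no comparison under the 3 other scalings. Oas1a, at 28.8 RPKM in heart and 26.9 RPKM in pericardial macrophages, was the most abundant of the family and was not called.

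Genes of signalling and transcription feed back on the pathway. Usp18, which removes Isg15 from proteins and blocks Ifnar2, was at 3.05, 3.98, 1.99 and 1.54 RPKM in pericardial, and 3.31, 6.44, 2.01 and 1.92 RPKM in pleural libraries. Peritoneal libraries had 2.07, 4.2, 1.56 and 1.54 RPKM and heart libraries 5.67, 8.04, 6.71 and 8.71 RPKM. Pleural library 3 reached into the heart range, and no other cavity library did. Usp18 rose by 1.36 ± 0.32 against pericardial (limma adjusted p = 0.000942), 1.11 ± 0.32 against pleural and 1.53 ± 0.32 against peritoneal macrophages. Stat2 rose by 0.81 ± 0.28 against pericardial and by 0.71 ± 0.28 against peritoneal macrophages, and its partner Irf9 by 0.48 ± 0.20 against peritoneal macrophages alone.

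Irf7, the factor that amplifies interferon production, had 16.3, 22.8, 12.9 and 10.9 RPKM in pericardial, and 14.4, 30.5, 16.8 and 14.1 RPKM in pleural libraries. Peritoneal libraries had 13.2, 31.8, 10.01 and 11 RPKM and heart libraries 13.3, 32.2, 15.3 and 22.8 RPKM. The groups overlapped across their whole range, and library 3 was the highest in all 4. Irf7 was not called on the deposited scale. Under median-ratio scaling it was called higher in heart against pericardial (0.86) and peritoneal macrophages (0.82).

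The 4 sensors of foreign nucleic acid were called in 0 heart comparisons by limma with all libraries, and 0 had an unadjusted p under 0.05. Zbp1 passed against peritoneal macrophages without the libraries numbered 3. The DNA and RNA sensor Zbp1 was at 7.23, 12.1, 6.97 and 5.15 RPKM in pericardial, and 6.97, 22.7, 7.04 and 6.76 RPKM in pleural libraries. Peritoneal libraries had 6.26, 15.1, 4.1 and 4.96 RPKM and heart libraries 6.18, 14, 7.81 and 9.18 RPKM. Library 3 stood highest in all 4 groups, and the groups overlapped. Ifih1, which encodes the RNA sensor MDA5, ranged from 4.87 to 6.94 RPKM over pericardial and from 5.33 to 6.84 RPKM over pleural libraries. It ranged from 4.34 to 7.61 RPKM over peritoneal and from 4.1 to 6.86 RPKM over heart libraries, so that all groups overlapped. Ddx58, which encodes RIG-I, averaged 6.37 RPKM in heart and 6.57 RPKM in pericardial macrophages, and Dhx58 9.5 and 8.9 RPKM. Under the other scalings 3, 3 and 2 of the 4 were called higher in heart than in pericardial macrophages (median-ratio, equal RPKM total and quantile). Higher calls over all tested genes rose as well, to 3535, 4070 and 2865 of 11234.

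The p200 genes on chromosome 1 encode intracellular DNA-binding proteins. Ifi205 had 1.05, 2.28, 1.41 and 0.857 RPKM in pericardial, and 0.462, 3.76, 1.36 and 0.519 RPKM in pleural libraries. Peritoneal libraries had 0.494, 2.1, 0.561 and 0.621 RPKM and heart libraries 3.98, 5.52, 6.22 and 4.59 RPKM. Heart libraries lay above all cavity libraries, by little over pleural library 3. Ifi205 rose by 1.59 ± 0.38 against pericardial (limma adjusted p = 0.00115), 1.72 ± 0.38 against pleural and 2.06 ± 0.38 against peritoneal macrophages. Ifi204 rose by 0.64 ± 0.24 against pericardial macrophages, at 58.9 against 37.5 RPKM. Ifi203 was not called, at 27.1, 33.7, 39.8 and 31.9 RPKM in heart libraries and between 19.8 and 38.9 RPKM in the 12 cavity libraries. Under each of the 3 other scalings all 3 p200 genes, Ifi203 included, were called higher in heart in all 3 comparisons. Those scalings gave more higher calls over all tested genes too. These genes are close paralogues, so reads may have been shared among them.

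Gbp2 and Gbp3, guanylate-binding proteins that coat membranes around intracellular microbes, were the genes with the largest falls. Gbp2 was at 25.1, 52.5, 27.7 and 18.9 RPKM in pericardial, and 25.8, 124, 25.5 and 23 RPKM in pleural libraries. Peritoneal libraries had 26.4, 42.7, 18.4 and 19.9 RPKM and heart libraries 6.36, 15.5, 9.51 and 9.78 RPKM. Every heart library was below all cavity libraries, and pleural library 3 was far above the other 3 of its group. The change of Gbp2 was -1.51 ± 0.43 against pericardial (limma adjusted p = 0.00479), -1.87 ± 0.43 against pleural and -1.33 ± 0.43 against peritoneal macrophages. Under median-ratio scaling the first and the third of these were -1.03 and -0.92 and not called. Neither was called at an equal RPKM total, and the third was not called under quantile normalization.

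Gbp3 was at 37.9, 45.3, 42.3 and 29 RPKM in pericardial, and 37.2, 57.3, 38.5 and 30.9 RPKM in pleural libraries. Peritoneal libraries had 38, 55.9, 29.8 and 28.9 RPKM and heart libraries 8.22, 15.1, 12.2 and 16.5 RPKM. The groups did not overlap. Gbp3 changed by -1.56 ± 0.24 against pericardial (limma adjusted p = 1.69e-05), -1.62 ± 0.24 against pleural and -1.51 ± 0.24 against peritoneal macrophages. With median-ratio scaling these were -1.07, -1.22 and -1.1, and all 3 were called.

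Among the membrane proteins and remaining genes, Siglec1 and Ifitm3 marked the ends. Siglec1 (CD169), a sialic acid receptor of macrophages, had 1.87, 3.36, 1.16 and 0.99 RPKM in pericardial, and 1.29, 3.92, 1.28 and 1.18 RPKM in pleural libraries. Peritoneal libraries had 4.87, 11.9, 4.22 and 4.43 RPKM and heart libraries 12.9, 22.6, 17.7 and 12.8 RPKM. Heart was the highest group with no overlap, and peritoneal libraries stood above all pericardial and pleural ones. Siglec1 rose in heart by 2.92 ± 0.35 against pericardial (limma adjusted p = 6.04e-07), 2.91 ± 0.35 against pleural and 1.40 ± 0.35 against peritoneal macrophages.

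Ifitm3 blocks viral fusion at endosomal membranes and was the most abundant of the 37 genes. It was at 1051, 1406, 1026 and 720 RPKM in pericardial, and 939, 1342, 938 and 893 RPKM in pleural libraries. Peritoneal libraries had 799.6, 999.5, 506 and 583 RPKM and heart libraries 299.8, 427, 403 and 512 RPKM. Heart libraries were below all pericardial and pleural libraries, and heart library 5 overlapped peritoneal library 4. The change was -1.34 ± 0.25 against pericardial (limma adjusted p = 0.000111), -1.33 ± 0.25 against pleural and -0.79 ± 0.25 against peritoneal macrophages. The last was not called without the libraries numbered 3 (-0.64), nor under median-ratio scaling or quantile normalization.

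Ifi35, which binds Nmi, was called lower against pericardial (-0.53 ± 0.22) and pleural macrophages (-0.56 ± 0.22), and under all 3 other scalings, or without the libraries numbered 3 (-0.39 and -0.42), it was not called. At an equal RPKM total its change against pericardial macrophages turned to 0.08. Bst2 (tetherin) averaged 100.7 RPKM in heart and 88.8 RPKM in pericardial macrophages, Parp14 14.4 and 13.1 RPKM, and Trim30a 18.8 and 17.9 RPKM, and none was called on the deposited scale. Under each of the 3 other scalings these 3 were called higher against pericardial macrophages, so that with Siglec1 4 of 6 tested genes were. More of all tested genes were then called higher as well. Ifi44 stayed at or under 1.19 RPKM in all libraries, its highest value being that of peritoneal library 3.

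Over the 36 genes, 8 had every heart library above all 12 cavity libraries (Ifit1, Ifit2, Ifit3, Rsad2, Mx1, Oasl1, Ifi205 and Siglec1), where 10.2% of all tested genes did. Of these, Ifit2, Ifit3, Rsad2 and Oasl1 passed the filter only with their heart libraries counted, so their place here is no separate support. Every heart library was below all cavity libraries for 2, Gbp2 and Gbp3, where 27.8% of all genes were. Leaving out libraries 1 at a time, 51 of the 62 called folds kept their call each time. The 11 others were Ifi204, Ifi35, Oasl2 and Stat2 against pericardial, Ifi35, Isg15 and Oas3 against pleural, and Irf9, Oas3 and Stat2 against peritoneal macrophages, and Siglec1 between cavities. Stat2 against pericardial macrophages lost its call only without heart library 3 (0.67), and Oasl2 without heart library 3 or pericardial library 4 or 5, with folds from 0.79 to 1.19 over all 8 omissions.

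**Figure D4:**
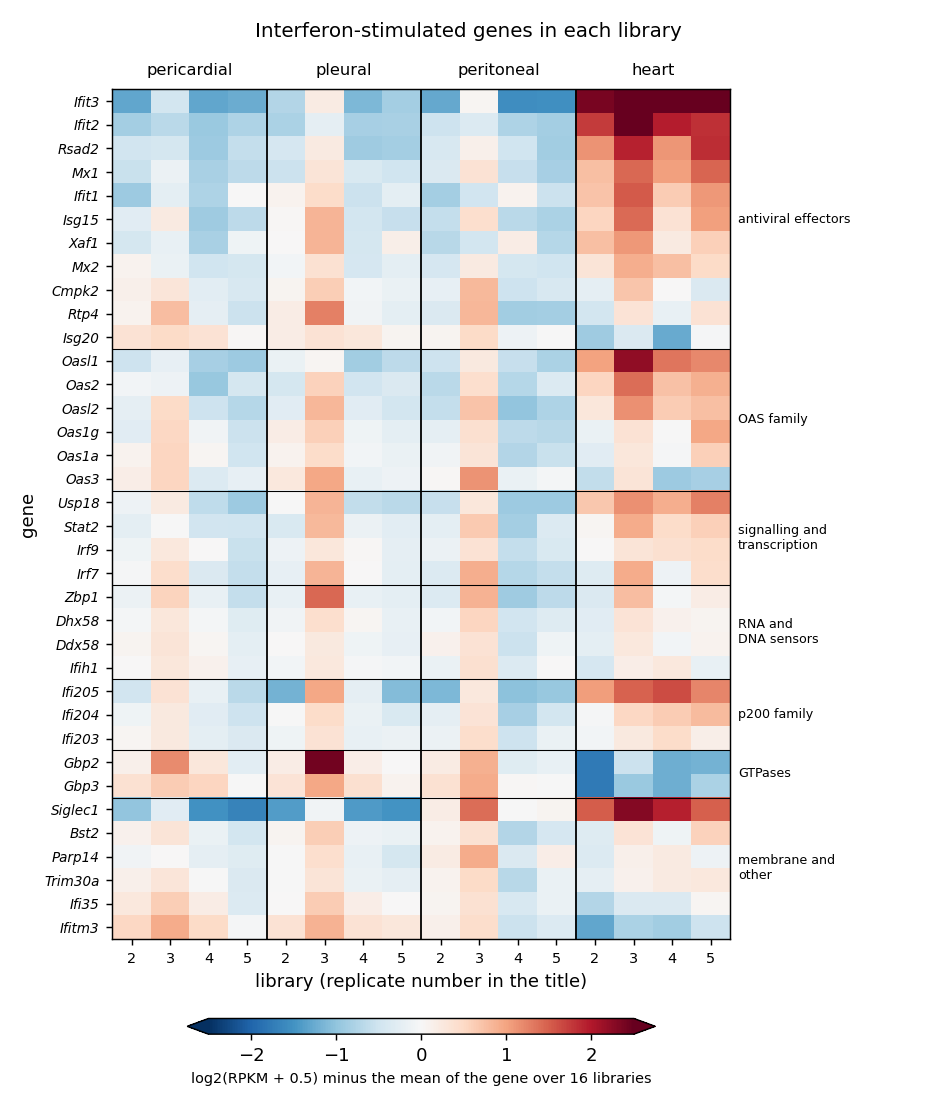
Rows are 36 genes grouped by role and columns are 16 libraries; colour gives log2(RPKM + 0.5) minus the mean of the gene over all 16 libraries, and it saturates past 2.5 in either direction. Ifit3 and Ifit2 are high in heart, Gbp2 and Gbp3 low in heart, and the column of library 3 is the warmest within each cavity group for most genes.

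Markers of other cells moved with the heart group. The 5 cardiomyocyte markers summed to between 209.7 and 433 RPKM in heart and at most 0.841 RPKM in cavity libraries, and the 4 fibroblast markers to between 47.8 and 211 RPKM against at most 0.527 RPKM. The 5 immediate early genes, which respond to tissue handling among other stimuli, summed to between 4043 and 6305 RPKM in heart and between 14.2 and 108 RPKM in the cavities. The 4 endothelial markers summed to between 1.33 and 6.57 RPKM in heart and at most 1.14 RPKM in cavity libraries. The 4 plasmacytoid dendritic cell markers summed to between 20.1 and 29.2 RPKM against at most 10.7 RPKM, while Ccr9 of that list was under 1 RPKM in every group and Klk1 was at 0 in all cavity libraries. Ly6c2, a marker of classical monocytes, was under 1 RPKM in heart and at most 1.01 RPKM in any library. Markers of large cavity macrophages (3 genes) summed to between 43.1 and 58.3 RPKM in heart and between 443 and 830.5 RPKM in cavity libraries, and B cell markers (4 genes) to between 7.28 and 11.7 RPKM against 14.2 to 68.7 RPKM. Dendritic cell markers stayed at or under 7.31 RPKM in all libraries, T and NK cell markers at or under 2.55 RPKM and neutrophil markers at or under 6.56 RPKM. The part of these cells or of handling in the heart differences was not tested, and the way cells were released from heart tissue cannot be told apart from the tissue itself.

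Among the cavity populations, Siglec1 was the 1 interferon-stimulated gene called, and in 1 of 3 comparisons. With limma, 0 of 36 genes were called between pericardial and pleural macrophages, where 0.0089% of all genes were called in each direction, and 0 had an unadjusted p under 0.05. Between pericardial and peritoneal macrophages 1 gene, Siglec1, was lower in pericardial ones (0.427% of all genes) and 0 were higher (0.525%). Its change was -1.53 ± 0.35 (limma adjusted p = 0.0357), and omitting pericardial library 2, 4 or 5, or peritoneal library 2, 3 or 5, ended the call, with folds from -1.8 to -1.2. Between pleural and peritoneal macrophages 0 genes were called, where 0.374% of all genes were lower and 0.214% higher. Siglec1 there changed by -1.51 ± 0.35 (limma adjusted p = 0.0548), and it passed under each of the 3 other scalings, without the libraries numbered 3 (-1.52), and when pleural library 3 or peritoneal library 4 alone was left out. At an unadjusted p under 0.05, Ifitm3 and Siglec1 stood out between pericardial and peritoneal macrophages, and Ifitm3, Siglec1 and Xaf1 between pleural and peritoneal ones.

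Other genes of the pathway were taken from lists of 107 genes, of which 106 were in the table and 89 were tested. Against pericardial macrophages 29 were higher and 20 lower in heart, where 14.7% and 53.8% of all tested genes were. Against pleural macrophages 26 and 16 were (13.9% and 47.8%), and against peritoneal 28 and 18 (14.1% and 48.8%). The median log2 fold of the 89 genes was 0.13, 0.11 and 0.16, and that of all tested genes -0.446, -0.364 and -0.382. Under median-ratio scaling 58 were higher and 9 lower against pericardial macrophages, where 3535 and 3550 of 11234 tested genes were. Without the libraries numbered 3 the counts were 30 and 14, 31 and 12, and 32 and 9. Over all genes they were then 1403 and 4775, 1411 and 4194, and 1506 and 3654. Between cavities 0 of 89 were called by limma, and 2, 6 and 3 had an unadjusted p under 0.05 in the comparisons of pericardial with pleural, pericardial with peritoneal and pleural with peritoneal macrophages.

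Of the ligands, none passed the filter on low values. Ifnb1, the gene of interferon beta, averaged 0.178 RPKM in heart and was listed at 0 in pericardial and pleural libraries, and Ifng averaged 0.113 RPKM in heart and 0.0488 RPKM in pericardial libraries. Among 5 receptor genes tested, the chains of the type I receptor moved apart. Ifnar1 had 25.3, 26.3, 23.7 and 19.5 RPKM in heart and 13.9, 13, 12.6 and 16.1 RPKM in pericardial libraries. Ifnar2 had 21.2, 25.2, 28.4 and 33.1 RPKM in heart and 48.4, 57.8, 53.9 and 37.7 RPKM in pericardial libraries. Ifnar1 was higher in heart by 0.74 ± 0.14 (limma adjusted p = 0.000194) and Ifnar2 lower by a change of -0.86 ± 0.18 (limma adjusted p = 0.000412), with no overlap of the groups, and both calls against pericardial macrophages held under the 3 other scalings (Ifnar2 -0.24 at an equal RPKM total).

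Of 12 signalling genes, 2 were higher and 5 lower in heart than in pericardial macrophages (14.7% and 53.8% of all tested genes). Under each of the 3 other scalings, which moved the calls over all genes the same way, 6 were higher and 2 lower. Without the libraries numbered 3 it was 2 and 3. The genes named next kept their calls in all of these. Irf1, an activator that binds ISRE-like sites, was at 89.6 against 18.4 RPKM and rose by 2.27 ± 0.34. Irf2, which competes with Irf1 for such sites, was at 30 against 93.8 RPKM and changed by -1.64 ± 0.20. The kinase Ikbke, which phosphorylates interferon regulatory factors, changed by -3.38 ± 0.15, from 15.8 to 1.06 RPKM. Irf8, a factor of myeloid cells, rose by 1.32 ± 0.16. Among 6 feedback genes 3 were higher and 2 lower (3 and 0 under each other scaling and without the libraries numbered 3), and the inhibitors Socs3 and Socs1 rose by 2.48 ± 0.23 and 2.15 ± 0.30.

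The chemokine Cxcl10 had the largest rise of the 38 other type I genes tested. Of these, 11 were higher and 10 lower, where 14.7% and 53.8% of all tested genes were on the deposited scale. Under median-ratio scaling 25 were higher and 5 lower, where 3535 and 3550 of 11234 tested genes were. Cxcl10 had 16.2, 20.3, 30.8 and 12.6 RPKM in heart libraries and at most 0.447 RPKM in any cavity library. It therefore passed the filter through the heart libraries alone. Its rise was 4.94 ± 0.23 against pericardial macrophages (limma adjusted p = 3.77e-13). Ms4a4c, a membrane protein, rose by 2.88 ± 0.22, while Slfn1, of a family that restrains T-cell growth, changed by -3.04 ± 0.30. Of 16 upstream sensors and adaptors 6 were higher and 1 lower (14.7% and 53.8% of all tested genes), and under each other scaling 14 and 1. Of all 11234 tested genes, 3535, 4070 and 2865 were then higher and 3550, 2694 and 4489 lower (median-ratio, equal RPKM total and quantile). The DNA receptor Tlr9 rose by 2.91 ± 0.22, the adaptor Tmem173 (STING) by 1.64 ± 0.17 and the RNA receptor Tlr8 by 1.01 ± 0.19, and Tlr13, a receptor for bacterial RNA, changed by -1.22 ± 0.20.

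Genes that respond more to interferon gamma gave 5 higher and 1 lower of 12 in heart against pericardial macrophages, 6 and 0 under median-ratio scaling and 7 and 1 without the libraries numbered 3. Over all tested genes 14.7% were higher and 53.8% lower on the deposited scale, and under median-ratio scaling 3535 and 3550 of 11234 were. Ciita, the activator of MHC class II genes, rose by 2.90 ± 0.22, and the chemokine Cxcl9 by 1.58 ± 0.24. For 10 of these 12 genes, library 3 was the highest of its group in all 4 groups, where 0.961% of all tested genes and 15 of the 36 interferon-stimulated genes did so. Iigp1, an immunity-related GTPase, was at 4.21, 15.4, 15.8 and 13.1 RPKM in library 3 of pericardial, pleural, peritoneal and heart macrophages. In the other 9 cavity libraries it lay between 0.442 and 0.789 RPKM, and in the other heart libraries it was 3.96, 5.18 and 6.6 RPKM. Iigp1 rose in heart by 2.26 ± 0.83 against pericardial macrophages (limma adjusted p = 0.022). Its folds of 1.61 against pleural and 1.62 against peritoneal macrophages were not called, and without the libraries numbered 3 both were (2.22 and 2.24). Tgtp2, of the same family, was at 13.6, 41.4, 21.7 and 18 RPKM in library 3 and between 1.12 and 2.51 RPKM in the other cavity libraries. The other heart libraries had 6.98, 7.11 and 10.3 RPKM. Tgtp2 was called in no heart comparison with all libraries, and was higher in heart in all 3 without those numbered 3 (1.76, 1.72 and 1.98 against pericardial, pleural and peritoneal macrophages).

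The authors' deposited table lists 61 transcripts of the 37 genes, and 16 genes have more than 1. For Zbp1, the authors' deposited table gives a heart to pericardial ratio of 0.516 for one transcript and 1.83 for the other. For Ifi203, the authors' deposited table gives ratios of 1.95, 1.03 and 0.609 for its 3 transcripts. For Isg20, the authors' deposited table gives 0.412 for the most abundant transcript and 1.10, 1.34 and 1.60 for the scarcer 3. The scarcer 3 had log2 means between -2.53 and -1.14 in heart and pericardial macrophages, near the floor, where the most abundant had 1.88 and 3.16. Zbp1, Ifi203 and Isg20 thus each had transcripts with ratios on both sides of 1, taken as deposited with no error.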

How the data were processed

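RNA was sequenced from sorted macrophages, 16 libraries in 4 groups. Per the file headers, the authors mapped reads to mm10 with TopHat and computed RPKM values in Partek; the submitters' processing notes name bcl2fastq 2.17.1, TopHat2 2.1.1 and Partek 7.18.0723. The sources used here do not name the read total behind RPKM, the annotation, the strand setting or the handling of multi-mapped reads, so reads of near-identical genes (Oas1a and Oas1g, Ifit3 and Ifit3b, Gbp, Ifitm and p200 genes) are split in an unknown way. The authors deposited the count of alignments per library, from 40886702 to 70166356. Their table by transcript holds, per the file headers, log2 group means, a ratio against pericardial macrophages, and a signed fold score, which for ratios below 1 is the reciprocal with a minus sign.

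Genes at 1 RPKM or more in at least 4 libraries (11234) were analysed as log2(RPKM + 0.5) of the deposited values, a scale on which folds of weakly expressed genes come out too small. RPKM values are not counts, so no count test was used. A single limma 3.58.1 model (R 4.3.3) took in the 16 libraries and 4 group means, with a trended variance and 12 residual degrees of freedom, giving two-sided moderated tests of 6 comparisons with Benjamini-Hochberg adjustment over all genes tested. The fit was tested on simulated data with independent noise per gene and library, which held no shift shared by the genes of a library. Errors are SE for folds and SD over 4 libraries for RPKM.

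The alternatives were pseudocounts 0.1 and 1, no filter, 3 scalings, the 2 groups alone, a replicate block and each library left out; omission of all libraries numbered 3 was added after seeing the data. Members, role groups, 7 pathway lists and 12 marker lists were chosen with earlier results of these data known. Values in every library are given for Ifit2, Ifit3, Rsad2, Siglec1, for the largest and smallest fold of heart against pericardial macrophages in each role group, and for members called between cavities; pathway genes are drawn from the 4 largest called folds of a list, and Tgtp2 was named after its values were seen. A gene of the signalling list is not reported here. Pyhin1 of the lists was not matched in the table. Promoter sequences and gene coordinates are from RefSeq, GRCm38.p6, the assembly of mm10.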

Additional observations from a re-analysis of the deposited data

Results flagged for a closer look

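Single libraries that stood apart from the other 3 of their group (gap to the nearest library, as a share of the group's range, above Dixon's 95% critical value) were found in 25 of 148 gene and group pairs, 16.9%, where chance gives about 1 in 20. In all 25 the library was the one numbered 3, and it was the highest of its group. Genes of a sample are not independent, so the 25 are not separate events.

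In peritoneal library 3, Cmpk2 stood at 6.25 RPKM, Ifi205 at 2.1, Ifi44 at 1.19, Ifit3 at 2.09, Irf7 at 31.8, Isg15 at 10.1 and Mx2 at 1.88 RPKM. Oas3 stood there at 9.25 RPKM, Oasl2 at 17.3 and Siglec1 at 11.9. In pleural library 3, Gbp2 stood at 124 RPKM, Ifi203 at 36.9, Ifih1 at 6.84, Ifit2 at 0.538, Ifitm3 at 1342 and Irf7 at 30.5. Mx1 stood there at 3.71 RPKM, Oas2 at 15.4, Oasl2 at 18.9, Siglec1 at 3.92, Stat2 at 13 and Zbp1 at 22.7. In pericardial library 3 it was Ifit3 at 1.31 RPKM, and in heart library 3 Ifit2 at 8.04 and Oas3 at 5.1 RPKM.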

How the results depend on the processing

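Of 62 called folds, 61 kept their direction in every alternative, and Ifi35 against pericardial macrophages turned to 0.08 at an equal RPKM total. Kept under every alternative were 13 higher and 2 lower calls against pericardial, 11 and 3 against pleural, and 15 and 1 against peritoneal macrophages. Genes called higher in heart numbered 27, 27 and 26 against pericardial (median-ratio, equal total, quantile), 23, 26 and 22 against pleural, and 26 against peritoneal macrophages with median-ratio scaling. Genes called lower numbered 3 and 2 against pericardial (median-ratio, equal total), 3 against pleural (equal total) and 1, 2 and 2 against peritoneal macrophages. Over all tested genes the scalings likewise gave more higher and fewer lower calls in each heart comparison. Siglec1 lower in pericardial than peritoneal macrophages gave 0 calls with no filter or with the 2 groups alone. Between pleural and peritoneal macrophages it gave 1 call under each scaling, under the replicate block and without all libraries numbered 3. Leaving out 1 library gave 13 to 17, 11 to 16 and 15 to 21 higher calls and 4 to 5, 4 to 6 and 4 to 5 lower calls in the heart comparisons, and 0 to 1 Siglec1 call between peritoneal and either other cavity.

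The labels do not say that replicate numbers pair the libraries, and not every same-numbered pair correlated over 0.1, the level asked for here: deviations from the group means correlated from -0.627 to 0.63 over 24 pairs. Between cavity groups 10 of 12 pairs were over 0.1, and 4 of 12 with heart, so a pairing among the cavities was not settled. With the replicate block, 16 genes were higher and 6 lower against pericardial, 14 and 6 against pleural, and 18 and 5 against peritoneal macrophages. The cause of these shifts was not tested. With 4 libraries a group and no counts, depth behind single values is unknown, and low genes such as Ifi44 are imprecise.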

Other observations

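The genes that stood highest in library 3 of all 4 groups numbered 108 on the deposited scale, where the numbers 2, 4 and 5 had 70, 6 and 8. After median-ratio scaling number 3 had 165 and number 2 had 143, and at an equal RPKM total 118 and 202. Over all genes such a count was thus not particular to library 3. With the 108 ranked by their smallest rise over the other 3 libraries, the first 50 held 12 of the 36 interferon-stimulated genes and 13 genes of the pathway lists. The genes named next were chosen after their values were seen. The MHC class Ib gene H2-Q7 was at 41.6, 59.6, 41.2 and 30.5 RPKM in library 3 of pericardial, pleural, peritoneal and heart macrophages, and between 6.25 and 16.3 RPKM in the other 12 libraries. H2-Q6 and H2-Q8 are close relatives, so reads may have been shared among them. The IgG receptor gene Fcgr4 was at 37.6, 59.3 and 72 RPKM in library 3 of pericardial, pleural and peritoneal macrophages, with no other cavity library above 26.4 RPKM. In heart it was at 39.1 RPKM in library 3 and 40.6 RPKM in library 5.

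The circadian clock gene Per2 was at 2.93, 3.69, 3.44 and 2.31 RPKM in library 3 of pericardial, pleural, peritoneal and heart macrophages, and between 0.52 and 1.52 RPKM in the other libraries. The clock repressor Cry1 was at 5.34, 5.54, 4.74 and 1.88 RPKM in library 3, against at most 2.7 RPKM in other cavity libraries and 1.33 RPKM in other heart libraries. Cry2 was between 1.61 and 2.81 RPKM in library 3 and at most 1.3 RPKM elsewhere.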
